A study of Mus musculus with 2 samples.

Results

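The smooth muscle contractile genes described here are 10 genes chosen by symbol for their known place in the contractile apparatus of smooth muscle cells: Acta2, Actg2, Myh11, Mylk, Cnn1, Tagln, Smtn, Lmod1, Des and Synm. They were 10 of the 43346 gene rows in each deposited table, and all 10 passed the filter on low values used in the tests, a mean of at least 10 counts. RNA came from the duodenum, where the small intestine begins, of C57BL/6J mice aged 8 weeks, pooled from male and female littermates. The series has 1 group of 2 libraries, biological replicates 1 and 2 in the labels, with no treatment, mutation or control group. Both carry 1 shared donor entry and separate tissue-sample entries, so separate animals are not established, and how much of the spread between the libraries is technical is not known. The RNA was depleted of ribosomal RNA, enriched for poly(A) and sequenced as strand-specific read pairs.

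Smooth muscle in the gut wall forms an inner circular and an outer longitudinal layer, a thin sheet under the mucosa, strands inside the villi and the walls of blood vessels. Contraction starts when calcium and calmodulin activate myosin light chain kinase, which phosphorylates the light chain of smooth muscle myosin and lets it pull on actin filaments. Actin-binding proteins tune this cycle, and intermediate filaments of desmin and its partners carry the force through the cell.

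Depth was alike, with 44272208 expected counts on genes in replicate 1 and 44710137 in replicate 2. The smooth muscle genes took 0.362% of the gene counts in replicate 1 and 0.227% in replicate 2. The libraries stood apart in genes of the exocrine pancreas, stomach and Brunner's glands: a list of 46 such genes, added after the tables had been examined, summed to 128883 TPM in replicate 1 and to 1783 TPM in replicate 2. TPM is the authors' level per transcript length, scaled to 1 total in each library, so a large share for some genes lowers the TPM of all others.

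Together the 10 genes summed to 1974 TPM in replicate 1 against 1329 TPM in replicate 2, a mean of 1652 ± 456 TPM (SD, n = 2). With the pancreas, stomach and gland genes and the spike-ins taken out of the total, the sum was 2315 TPM in replicate 1 against 1358 TPM in replicate 2. Acta2, Tagln, Actg2, Des and Cnn1 made up 91.1% of the summed TPM in replicate 1 and 92.6% in replicate 2. In whole tissue, a smaller number of smooth muscle cells and less RNA per cell cannot be told apart.

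By mean TPM the order was Acta2, Tagln, Actg2, Des, Cnn1, Smtn, Mylk, Myh11, Lmod1 and Synm. Ranges over the 2 libraries overlapped between Acta2 and Tagln, between Tagln and Actg2, between Actg2 and Des, between Smtn and Mylk, and between Myh11 and Lmod1, so these neighbours were not separated by their spread over libraries. Within each library, Acta2 lay above Tagln and Myh11 above Lmod1, while the other overlapping neighbours changed places between the libraries. The ranges of Des and Cnn1, of Cnn1 and Smtn, of Mylk and Myh11, and of Lmod1 and Synm did not overlap. Acta2 was the highest of the 10 and Synm the lowest in each library.

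**Figure D1:**
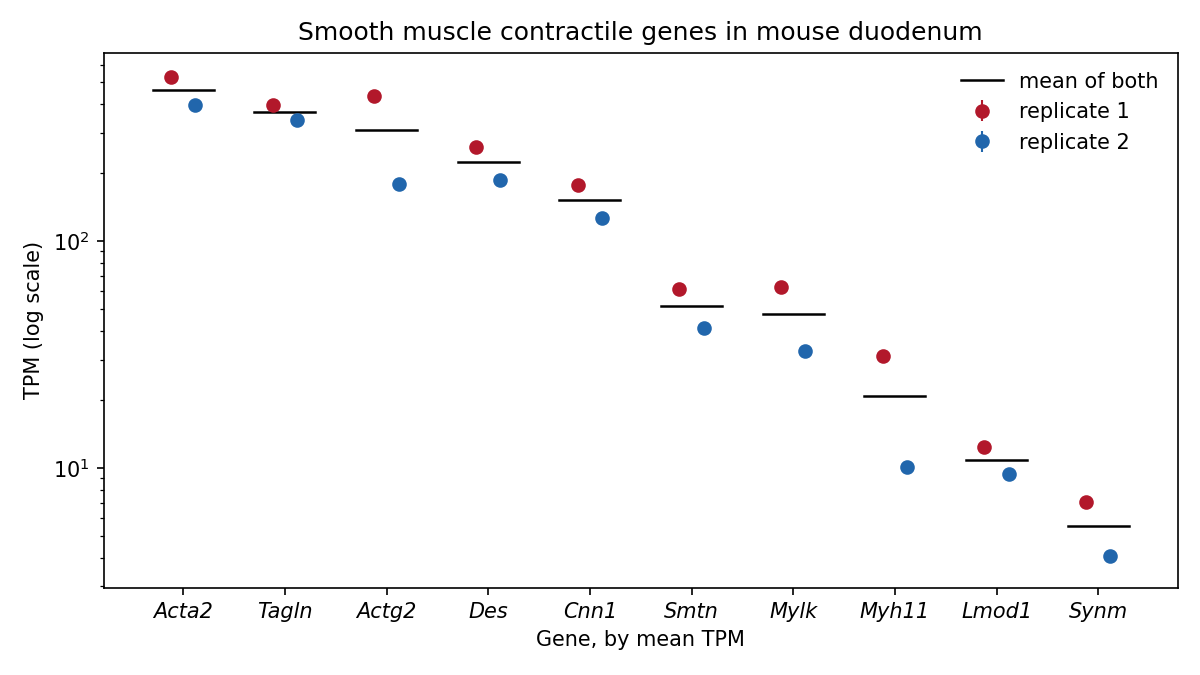
TPM (log scale) of each smooth muscle gene in replicate 1 (red) and replicate 2 (blue), with the authors' TPM intervals as error bars, smaller than the points, and the mean of both libraries as a black line. Genes run from Acta2, at a mean of 463 TPM, to Synm, at 5.56 TPM, and every gene has its higher TPM in replicate 1.

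The thin filaments of smooth muscle are built from Acta2, the alpha actin of vascular and visceral muscle, and Actg2, the gamma actin typical of the gut. Acta2 (ENSMUSG00000035783.8) lies at chr19:34241090-34255590 and Actg2 (ENSMUSG00000059430.10) at chr6:83512905-83536265, both on the minus strand of mm10. The coding sequences of the striated muscle actins Acta1 and Actc1 are close to theirs, so the start of each is shown because it bears on how far reads can be told apart. Sequences are from GENCODE M21 transcripts, 5′ to 3′ from the start codon. Capitals mark bases that differ from Acta2, and Actg2, which is 1 codon shorter, is aligned with a gap of 1 codon after base 9.
Acta2: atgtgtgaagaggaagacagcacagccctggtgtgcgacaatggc
Actg2: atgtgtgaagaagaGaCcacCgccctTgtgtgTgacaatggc
Acta1: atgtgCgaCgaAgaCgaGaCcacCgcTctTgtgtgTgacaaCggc
Actc1: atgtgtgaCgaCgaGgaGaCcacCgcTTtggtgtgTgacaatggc

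Over the whole coding sequence the share of aligned bases identical to Acta2 was 84.2% for Actg2, 85.4% for Acta1 and 82.5% for Actc1. The longest run of bases shared with the Acta2 transcript was 29 in Actg2, 29 in Acta1 and 23 in Actc1, each shorter than the 76-base reads. No 76-base stretch of a main transcript of any of the 10 genes occurred in a GENCODE M21 transcript of another gene, and the deposited counts were whole numbers for all but Des in replicate 1.

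Acta2 stood at 526 TPM in replicate 1 against 399 TPM in replicate 2 (463 ± 89.99 TPM, SD, n = 2). It ranked 221 among all genes in replicate 1 and 377 in replicate 2. Actg2 stood at 435 TPM in replicate 1 against 179 TPM in replicate 2 (307 ± 181 TPM, SD, n = 2). Within a library, the TPM of Actg2 was 0.828 times that of Acta2 in replicate 1 and 0.449 times in replicate 2, so the gut actin came close to the alpha actin in replicate 1 and lay further below it in replicate 2.

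Counts were then set between the libraries after TMM scaling, a scaling that takes most genes as alike. A gene was called where an exact binomial test had an adjusted p under 0.05 and the ratio reached 2-fold. The test compares these 2 libraries and not conditions, and its intervals cover counting error only. Of the 15921 genes tested, 25.8% were called, 14.4% as higher in replicate 1 and 11.4% as higher in replicate 2. Among the 10 smooth muscle genes 2 were called, Actg2 and Myh11, both higher in replicate 1, a share near the background. All 10 had an adjusted p under 0.05, as had 74.6% of all genes tested at this depth, the largest among the 10 being 3.81e-05 for Lmod1 by the exact binomial test with Benjamini-Hochberg adjustment. With the pancreas, stomach and gland genes left out of the library sizes, Actg2 and Myh11 were again the members called. Their log2 ratios went from 1.126 to 1.128 for Actg2 and from 1.464 to 1.467 for Myh11. A shift this small could hardly have changed a call.

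Actg2 had 19154 expected counts in replicate 1 and 7524 in replicate 2, a scaled ratio of 2.18 (95% interval 2.12 to 2.24), and its adjusted p was too small to be represented. Acta2, with 34292 counts in replicate 1 and 24792 in replicate 2, had a scaled ratio of 1.19 (1.17 to 1.21), which did not reach the 2-fold limit. The ratios of the 2 actins between the same libraries were therefore unequal, and their intervals did not overlap. A larger log2 ratio than that of Actg2 was found in 12.7% of the genes tested.

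Myh11 (ENSMUSG00000018830.8, chr16:14194535-14291372, minus strand) encodes the smooth muscle myosin heavy chain, the motor of the thick filament and a marker of mature smooth muscle. It stood at 31.2 TPM in replicate 1 against 10.1 TPM in replicate 2 (20.6 ± 15.0 TPM, SD, n = 2). Expected counts were 8236 in replicate 1 and 2558 in replicate 2. Their scaled ratio of 2.76 (95% interval 2.64 to 2.89) was the largest of the 10 genes, and 8.46% of the genes tested had a larger log2 ratio. Relative to Acta2 in the same library, its TPM was 0.0594 times as high in replicate 1 and 0.0252 times in replicate 2.

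Smooth muscle myosin exists in forms that differ by a small exon in the head, known from the faster SM-B form, and by a small exon at the tail, known from the SM2 form. The tables quantified 1 Myh11 transcript of 6632 bases, Myh11-201, so the forms cannot be told apart in these values, although GENCODE M21 lists 4 Myh11 transcripts. The exons that Myh11-201 lacks are shown because they are what reads would have to cover. The first, of 21 bases in Myh11-204, lies at chr16:14248580-14248600, and the second, of 39 bases in Myh11-202, at chr16:14198050-14198088, both on the minus strand of mm10 and given 5′ to 3′ in the direction of the transcript.
Myh11-204 exon: caaggtccatcttttgcctac
Myh11-202 exon: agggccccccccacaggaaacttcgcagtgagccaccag

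Myh11-201 has 1972 codons before its stop, Myh11-202 has 1938 and Myh11-204 has 1979. A read from either exon has no place in the quantified transcript, so the 31.2 TPM and 10.1 TPM above do not separate the forms.

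Mylk (ENSMUSG00000022836.10, chr16:34745210-35002420, plus strand) encodes myosin light chain kinase. It stood at 62.5 TPM in replicate 1 against 32.7 TPM in replicate 2 (47.6 ± 21.1 TPM, SD, n = 2), and its TPM was 2.00 times that of Myh11 in replicate 1 and 3.26 times in replicate 2. Expected counts of 19428 in replicate 1 and 9852 in replicate 2 gave a scaled ratio of 1.69 (95% interval 1.65 to 1.73), short of the 2-fold limit. The long Mylk-201, of 7824 bases and 1950 codons, held 99.2% of the gene's TPM in replicate 1 and 99.7% in replicate 2, and a transcript with a retained intron held the rest.

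The Mylk gene also gives rise to telokin, a short protein of smooth muscle made from the end of the kinase's reading frame. GENCODE M21 has a transcript of this arrangement, Mylk-203, with 1620 bases and 159 codons whose coding sequence is the end of that of Mylk-201. It was not among the 2 Mylk transcripts quantified, so reads from its coding part, if present, fell on the sequence of Mylk-201, and the levels of kinase and telokin RNA cannot be told apart.

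Cnn1 and Tagln encode calponin and transgelin (SM22), related actin-binding proteins abundant in differentiated smooth muscle. Tagln (ENSMUSG00000032085.4, chr9:45929619-45936058, minus strand) stood at 399 TPM in replicate 1 against 341 TPM in replicate 2 (370 ± 41.4 TPM, SD, n = 2). Its scaled ratio of 1.06 (95% interval 1.04 to 1.08) was the smallest of the 10, and 48.2% of the genes tested had a larger log2 ratio. Cnn1 (ENSMUSG00000001349.4, chr9:22099216-22109630, plus strand) stood at 177 TPM in replicate 1 against 126 TPM in replicate 2 (152 ± 36.3 TPM, SD, n = 2), with a scaled ratio of 1.26 (1.23 to 1.29). Neither reached the 2-fold limit, and each was quantified as a single transcript.

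Relative to Acta2, the TPM of Cnn1 was 0.337 times as high in replicate 1 and 0.316 times in replicate 2, and that of Tagln 0.759 times in replicate 1 and 0.854 times in replicate 2. The proportions of these genes to Acta2 thus stayed closer between the libraries than that of Actg2 did. Lmod1 (ENSMUSG00000048096.7, chr1:135324807-135368065, plus strand), a leiomodin that starts new actin filaments, was low at 12.3 TPM in replicate 1 against 9.43 TPM in replicate 2 (10.9 ± 2.04 TPM, SD, n = 2). Its TPM was 0.0234 times that of Acta2 in replicate 1 and 0.0236 times in replicate 2, and its scaled ratio of 1.16 (95% interval 1.08 to 1.25) was not called.

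Smtn (ENSMUSG00000020439.13, chr11:3517523-3540612, minus strand) encodes smoothelin, an actin-associated protein of contractile smooth muscle known in a longer form typical of vessels and a shorter form typical of the gut wall. The gene stood at 61.7 TPM in replicate 1 against 41.4 TPM in replicate 2 (51.6 ± 14.3 TPM, SD, n = 2), with a scaled ratio of 1.32 (95% interval 1.27 to 1.37). Its share of the summed TPM of the 10 genes was 3.13% in replicate 1 and 3.12% in replicate 2. Of its 10 transcripts, 7 were above 0 in replicate 1, and of these Smtn-202, Smtn-207 and Smtn-210 stood at 0 in replicate 2.

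Transcripts of Smtn differ in the penultimate exon, which Smtn-203 leaves out, Smtn-204 holds in a short form and Smtn-201 and Smtn-202 hold in a long form. The exon is shown because it sets the end of the protein. The short form lies at chr11:3520848-3520916 and the long form, printed up to its stop codon, at chr11:3520772-3520916, both on the minus strand of mm10 and 5′ to 3′. Capitals mark the bases that the short form lacks.
Smtn-204 exon: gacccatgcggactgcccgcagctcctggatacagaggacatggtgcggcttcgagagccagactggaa
Smtn-201 exon: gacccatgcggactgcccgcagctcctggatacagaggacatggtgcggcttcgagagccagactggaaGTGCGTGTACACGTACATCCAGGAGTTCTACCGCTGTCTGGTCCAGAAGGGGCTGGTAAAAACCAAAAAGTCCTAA

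Smtn-204, with the short exon and 946 codons, stood at 26.4 TPM in replicate 1 against 15.6 TPM in replicate 2. Smtn-203, without the exon and with 923 codons, stood at 18.8 TPM in replicate 1 against 15.7 TPM in replicate 2. The authors' TPM intervals of these transcripts overlapped each other within each library, so their order was not resolved. Smtn-201, the short coding transcript of 436 codons with the long exon, stood at 10.4 TPM in replicate 1 against 8.54 TPM in replicate 2, which was 16.9% of the gene's TPM in replicate 1 and 20.6% in replicate 2. As a share of expected counts, which takes no account of its shorter length, Smtn-201 averaged 11.6%, against 18.7% by TPM. The 4 long coding transcripts together held 76.04% in replicate 1 and 75.5% in replicate 2, where Smtn-202 and Smtn-210 stood at 0. The share of the long forms was therefore close in both libraries.

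Des (ENSMUSG00000026208.9, chr1:75360329-75368579, plus strand) encodes desmin, the main intermediate filament protein of muscle. It stood at 261 TPM in replicate 1 against 186 TPM in replicate 2 (224 ± 52.6 TPM, SD, n = 2), with a scaled ratio of 1.24 (95% interval 1.22 to 1.26) that was not called. Des-201 held 99.0% of the gene's TPM in replicate 1 and 99.7% in replicate 2, and 2 transcripts with retained introns held the rest. Relative to Acta2, the TPM of Des was 0.496 times as high in replicate 1 and 0.467 times in replicate 2.

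Synm (ENSMUSG00000030554.11, chr7:67730160-67759742, minus strand) encodes synemin, a large intermediate filament protein that joins desmin. It stood at 7.04 TPM in replicate 1 against 4.07 TPM in replicate 2 (5.56 ± 2.10 TPM, SD, n = 2), with a scaled ratio of 1.56 (95% interval 1.45 to 1.68), short of the 2-fold limit. Its 2 transcripts differ by a stretch of 906 bases, or 302 codons, at chr7:67733554-67734459 on the minus strand of mm10, which Synm-202 keeps and Synm-201 splices out. The first and last 30 bases of the stretch are shown, 5′ to 3′, with the bases of a splice donor and of a splice acceptor at its ends.
Synm-202 stretch start: gtaagtggagacttcagcgaggcagtcagc
Synm-202 stretch end: gggcccaaagaaacttcatttactttccag

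Synm-201, with 1259 codons, stood at 4.05 TPM in replicate 1 against 2.88 TPM in replicate 2. Synm-202, with 1561 codons, stood at 3 TPM in replicate 1 against 1.19 TPM in replicate 2. The longer form thus held 42.6% of the gene's TPM in replicate 1 and 29.2% in replicate 2 (35.9% ± 9.45, SD, n = 2). The authors' TPM intervals of each transcript did not overlap between the libraries, and the shift in share itself was not tested.

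Actg2 was quantified as 5 transcripts. Actg2-201, with 376 codons, held 85.6% of its TPM in replicate 1 and 87.5% in replicate 2, and Actg2-204 held 13.6% in replicate 1 and 12.2% in replicate 2. By expected counts the mean share of Actg2-204 was 7.99%, against 12.9% by TPM. Actg2-202 and Actg2-205 were listed at 0 in both libraries. The higher TPM of Actg2 in replicate 1 was therefore seen in its main transcript, at 373 TPM in replicate 1 against 157 TPM in replicate 2, and in Actg2-204, at 59.3 TPM in replicate 1 against 21.9 TPM in replicate 2.

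**Figure D2:**
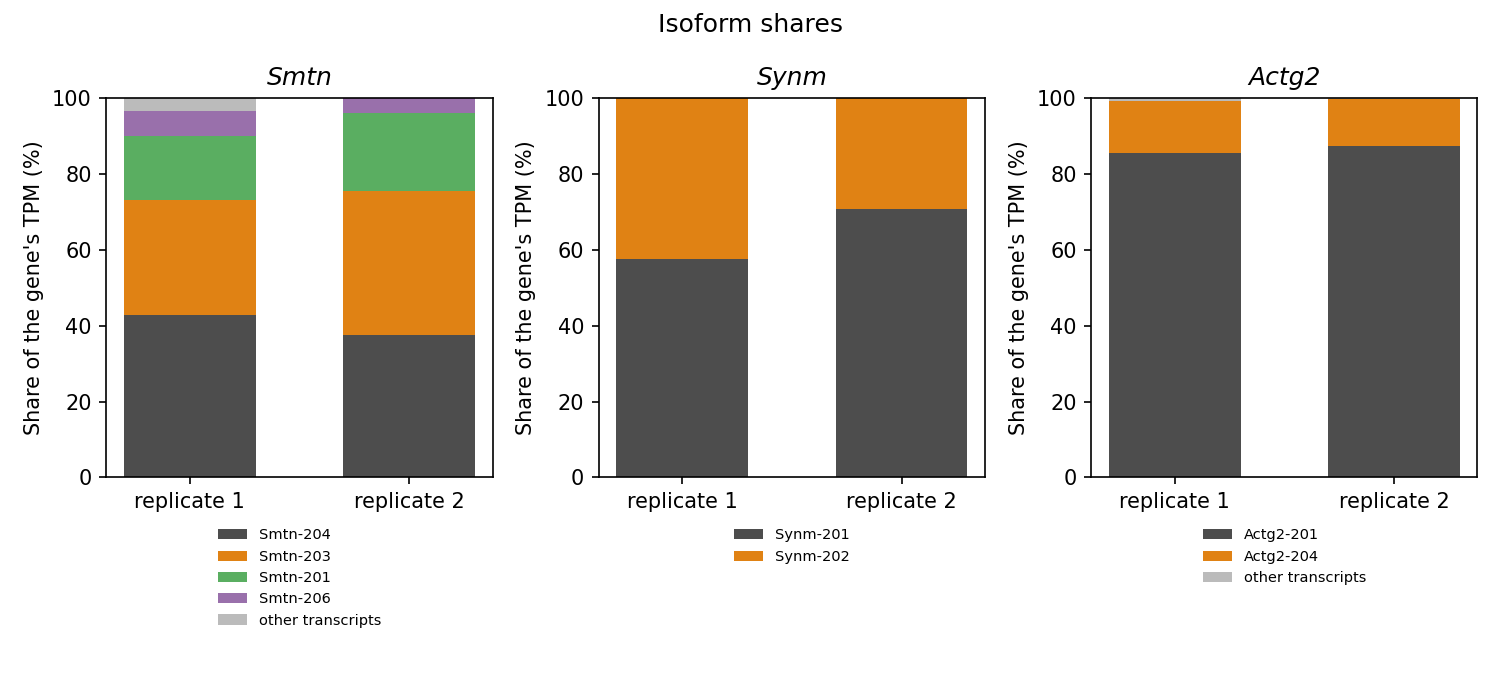
Share of each gene's TPM (percent) held by its transcripts in replicate 1 and replicate 2, for Smtn, Synm and Actg2, with transcripts of a mean share under 3% joined as other transcripts. Synm-202 has a share of 42.6% in replicate 1 and 29.2% in replicate 2, while the shares of Actg2-201 are 85.6% and 87.5%.

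Set beside all genes, the 10 had a median log2 ratio, replicate 1 over replicate 2, of 0.36, and the median of all genes tested was 0.04. All 10 were above 0, as were 52.1% of all genes tested. On the TPM scale all 10 had the higher value in replicate 1, as had 59.1% of all genes tested, and the same 2 members reached a TPM ratio of 2, as did 19.5% of all genes tested. With the pancreas, stomach and gland genes and the spike-ins taken out of the TPM total, Mylk joined them at a TPM ratio of 2.19 and Synm stood at 1.98, where 25% of all genes tested reached a TPM ratio of 2 in that direction. The lower and upper quartiles of all genes were -0.50 and 0.61, and 6 of the 10 members lay between them, with Synm at 0.65, Mylk at 0.76, Actg2 at 1.13 and Myh11 at 1.46 outside it.

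**Figure D3:**
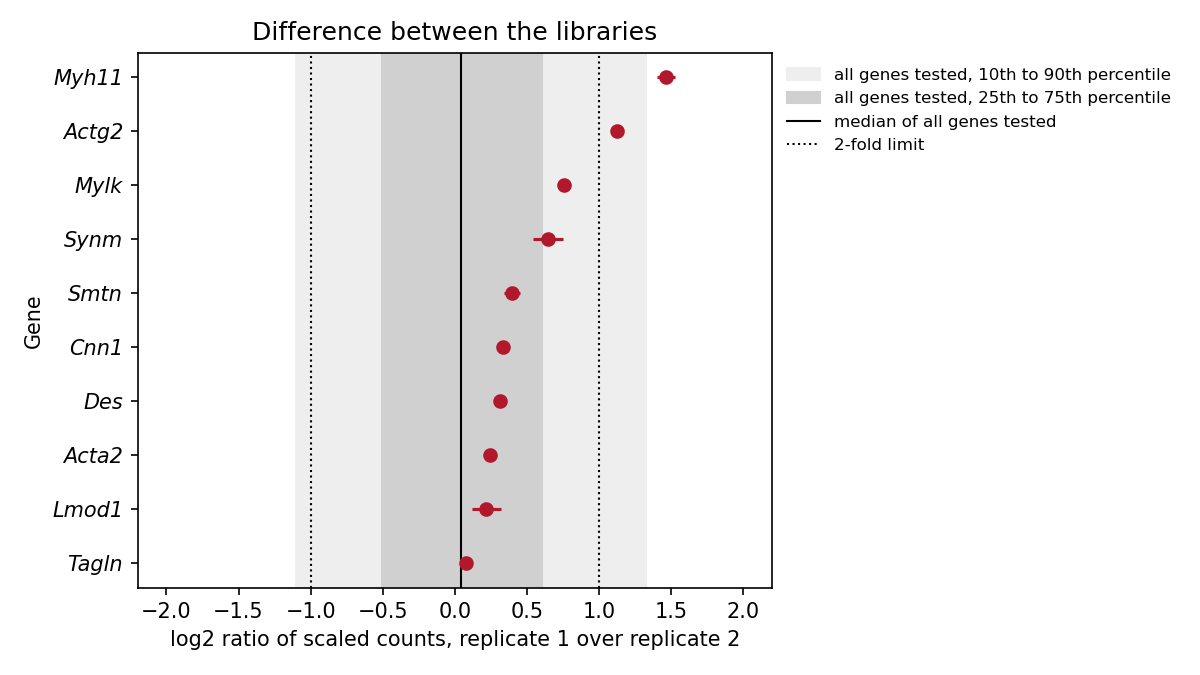
Log2 ratio of scaled counts, replicate 1 over replicate 2, for each smooth muscle gene with its 95% interval for counting error, over grey bands for the middle of all genes tested and dotted lines at the 2-fold limit. Actg2 at 1.13 and Myh11 at 1.46 lie past the limit, and the other genes lie between 0.08 and 0.76.

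The ratio between the libraries moved with transcript length across genes, with a Spearman rho of 0.151 over 15921 genes, which share their libraries and are not replicates. The median log2 ratio was -0.11 for genes of 1000 to 2000 bases and 0.40 for genes over 6000 bases, the class of Myh11, Mylk and Synm. Set against the median of its length class, the log2 ratio of Myh11 was 1.06, that of Mylk 0.36 and that of Synm 0.24. Actg2, a short transcript, stood at 1.23 on this scale. The part of length in these ratios was not tested.

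**Figure D4:**
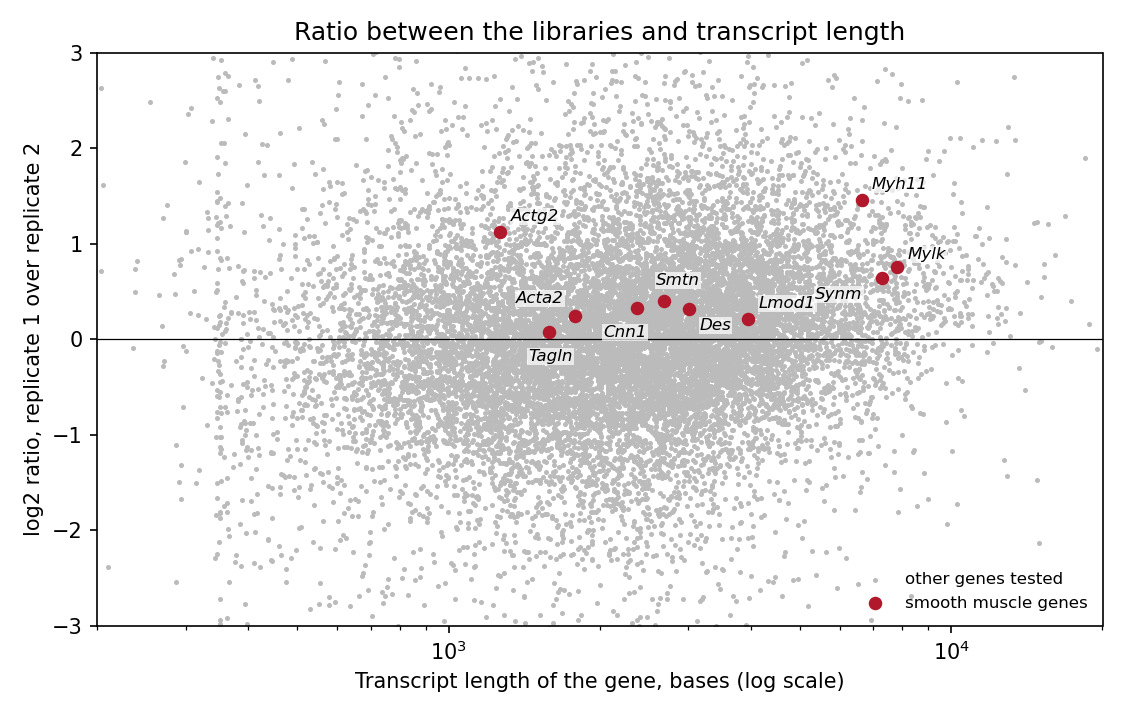
Log2 ratio of scaled counts, replicate 1 over replicate 2, against transcript length in bases (log scale) for the smooth muscle genes (red) and 15911 other genes tested (grey, of which 635 lie outside the axes). Myh11, Mylk and Synm are the longest of the 10, and Actg2 is the shortest, with a log2 ratio of 1.13.

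Beside the members stood other parts of the contractile apparatus. Of 24 partner proteins of filaments, adhesion sites and caveolae, 4 were called higher in replicate 1 and 0 in replicate 2. Among all genes tested, 14.4% were called higher in replicate 1 and 11.4% in replicate 2, the background for this list and those below. The median log2 ratio of the list was 0.55. Those called were Synpo2, an actin-binding protein, with a ratio of 3.05, Cald1, the actin regulator caldesmon, with 2.65, Dmd, dystrophin, with 3.06, and Sgca, a sarcoglycan, with 2.24. The most abundant were Myl6, a myosin light chain, at 663 TPM in replicate 1 against 423 TPM in replicate 2, Myl9, the light chain that Mylk phosphorylates, at 427 and 382 TPM, and the actin crosslinker Flna at 296 and 222 TPM. Myl9 had a scaled ratio of 0.985, and so was not called.

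Of 14 transcriptional regulators tested, 5 were called higher in replicate 1 and 2 in replicate 2, with a median log2 ratio of 0.09. The background shares over all genes tested were 14.4% and 11.4%. Myocd, the coactivator that switches on smooth muscle genes together with Srf, stood at 3.78 TPM in replicate 1 against 1.75 TPM in replicate 2, a ratio of 2.23. Srf itself stood at 72.3 TPM in replicate 1 against 78.8 TPM in replicate 2 and was not called. Fhl1, Tead1 and Tshz3 were also called higher in replicate 1, with ratios of 2.06, 2.29 and 2.32. Barx1, a homeobox gene of the stomach wall, had 595 counts in replicate 1 against 1 count in replicate 2, a ratio of 510 with a counting interval of 91.2 to 20177. Hic1 and Nkx2-3, a homeobox gene of the intestinal wall, were called higher in replicate 2, with ratios of 0.417 and 0.288. Gata6 was the most abundant of the list, at 81.6 TPM in replicate 1 against 129 TPM in replicate 2.

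Of 23 genes of calcium handling and of light chain phosphorylation, 7 were called higher in replicate 1 and 0 in replicate 2, with a median log2 ratio of 0.54. They were Ppp1r12a, the targeting subunit of myosin phosphatase, with a ratio of 3.32, the subunits of soluble guanylyl cyclase Gucy1a1 and Gucy1b1 with 2.86 and 2.26, the potassium channel subunit Kcnmb1 with 3.43, phospholamban (Pln) with 2.97, the calcium release channel Ryr2 with 2.47 and the kinase Prkg1 with 2.86, the last on 20 counts in replicate 1 and 6 in replicate 2. The small GTPase Rhoa, which acts on myosin phosphatase through its kinases, was among the more abundant, at 71.7 TPM in replicate 1 against 69.5 TPM in replicate 2, and was not called. In all, 16 genes of the list were not called. The list summed to 1345 TPM in replicate 1 against 1819 TPM in replicate 2, the opposite direction to its called genes. Background shares over all genes tested were 14.4% higher in replicate 1 and 11.4% in replicate 2.

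Of 13 receptors tested, 5 were called higher in replicate 1 and 1 in replicate 2, with a median log2 ratio of 0.86. Over all genes tested these shares were 14.4% and 11.4%. The muscarinic receptors Chrm2 and Chrm3, through which acetylcholine drives gut muscle, had ratios of 3.48 and 3.02. The tachykinin receptor Tacr2, the angiotensin receptor Agtr1a and the endothelin receptor Ednra had ratios of 3.26, 3.10 and 3.14. Oxtr, the oxytocin receptor, was called higher in replicate 2 on 32 counts in replicate 1 and 64 in replicate 2. Most receptors were low, while Gpr20 and P2ry1 lay above the members Lmod1 and Synm in each library. By mean TPM Gpr20 was the highest, at 20.9 TPM in replicate 1 against 11.3 TPM in replicate 2, followed by P2ry1, which lay above it in replicate 2 at 16.2 TPM, and Ptger3.

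Paralogs of the members, which serve in striated muscle and in cells other than muscle, were also listed. Of 15 tested, 0 were called higher in replicate 1 by the exact binomial test and 2 in replicate 2, with a median log2 ratio of -0.08. Those called were Actb, the cytoplasmic beta actin, at 4872 TPM in replicate 1 against 10336 TPM in replicate 2, and Myh14, a non-muscle myosin heavy chain, at 123 TPM in replicate 1 against 270 TPM in replicate 2. The cytoplasmic Actg1, at 768 TPM in replicate 1 against 1238 TPM in replicate 2, and Tagln2, at 329 and 282 TPM, were not called. Nor were the non-muscle calponins Cnn2, at 45.6 TPM in replicate 1 against 48.3 TPM in replicate 2, and Cnn3, at 45.8 and 40.7 TPM, the intermediate filament gene Vim, at 292 and 243 TPM, or the non-muscle myosin heavy chains Myh9, at 32.8 and 37.9 TPM, and Myh10, at 3.45 and 1.73 TPM. The striated muscle actins Acta1, at 9.58 TPM in replicate 1 against 14.0 TPM in replicate 2, and Actc1, at 1.01 and 1.76 TPM, the filament capping genes Tmod1, at 1.79 and 0.89 TPM, and Tmod3, at 4.36 and 3.10 TPM, and Smtnl2, at 4.58 and 3.54 TPM, were low and not called, and Tagln3 stood at 0.56 and 0.49 TPM. Mylk3 and Mylk2 had at most 4 counts and were not tested. Acta2 thus lay below both cytoplasmic actins in each library, on the TPM scale. Lmod2, Lmod3, Mylk4 and Smtnl1 had 0 counts in each library. At these depths a count of 0 allows a level of at most 0.0678 CPM (counts scaled to a common total of gene counts) in replicate 1 and 0.0671 CPM in replicate 2.

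Markers of other cells are given here whichever way they went, and their part in the members' ratios was not tested. For all marker lists the background is again 14.4% of genes called higher in replicate 1 and 11.4% in replicate 2. Of 9 skeletal muscle genes, 3 could be tested and 0 were called, Myh1, Myh4, Tnnt3 and Tnnc2 had 0 counts in both libraries, and the list summed to 45.9 TPM in replicate 1 against 43.7 TPM in replicate 2, most of it from Ckm and Acta1, with Actn3 next. Of 6 cardiac genes tested, Tnnt2, Myh6 and Myh7 were called higher in replicate 1 and Myl7 in replicate 2. The call of Myh6 rests on 33 counts in replicate 1 and 0 in replicate 2, and that of Myh7 on 29 and 6. Tnni3 was also among the highest, and the list summed to 10.8 TPM in replicate 1 against 14.5 TPM in replicate 2. Of 6 genes of pericytes and vascular muscle, 1 was called, Abcc9 with a ratio of 4.83, and the median log2 ratio was 0.70. Pdgfrb, Rgs5 and Notch3 were the most abundant by mean TPM, and the list summed to 47.3 TPM in replicate 1 against 29.0 TPM in replicate 2. Of 6 fibroblast genes, led by Col1a2, Col1a1 and Dcn, 0 were called, with a median log2 ratio of 0.51 and sums of 123 TPM in replicate 1 against 77.3 TPM in replicate 2.

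Of 3 genes of the pacemaker cells of the gut wall, Ano1 and Etv1 were called higher in replicate 1 with ratios of 5.73 and 5.50, and Kit was not called. Of 7 genes of enteric neurons and glia, 1 was called, S100b with a ratio of 3.60, and Uchl1, Sox10 and Ret were the most abundant. Median log2 ratios were 2.44 for the pacemaker list and 0.76 for the neuron and glia list, above the 0.36 of the members. Of 7 enterocyte genes, 5 were called higher in replicate 2, namely Apoa1, Apoa4, Vil1, Lct and Fabp2, and Alpi was called higher in replicate 1. Enterocyte genes summed to 12110 TPM in replicate 1 against 24237 TPM in replicate 2, the opposite direction to the sum of the smooth muscle genes. Alpi made up 7153 TPM of this sum in replicate 1 and 1568 TPM in replicate 2. Sums of the other lists went both ways, with neurons and glia at 26.7 TPM in replicate 1 against 27.7 TPM in replicate 2.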

How the data were processed

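Polyadenylated RNA of mouse duodenum was measured in 2 libraries of 1 group. Per the labels and the text files beside the tables, the authors used the mm10 build and the GENCODE M4 gene models. No source used here names the aligner or the quantifier. Deposited expected counts are estimated fragments per gene, not normalised. Deposited TPM values were divided by transcript length and brought to a common total by the authors, and the deposited percent values are the share of a transcript in its gene's TPM, per the file headers. Deposited posterior means served as alternatives. Names, positions and exons came from GENCODE M21 (GRCm38) by identifier.

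Rows that name no gene other than spike-ins were at 0.215% of expected counts in replicate 1 and 0.247% in replicate 2 and stayed out of tests. For genes averaging at least 10 counts, expected counts were rounded, and TMM factors came from edgeR 4.0.16 (R 4.3.3). With 1 group, edgeR's quasi-likelihood test has no contrast, so each gene was compared between the libraries by an exact two-sided binomial test with Benjamini-Hochberg adjustment over all genes tested. Log2 ratios use a prior count of 0.5. Intervals are 95% Clopper-Pearson intervals, and a floor is 3 counts; both cover counting error only. The procedure was tested on simulated counts that held counting error and set fold changes only. That simulation does not cover the spread between these libraries. Members and gene lists were chosen with earlier results of these data known. All members are named, and of each other list the genes called and the 3 of highest mean TPM. The added pancreas, stomach and gland list is given as a sum, with no gene of it named. It was also left out of the library sizes in an alternative, and taken out of the TPM total in another. Some genes that this rule names are not reported here. Alternatives were DESeq2 1.42.0 size factors, total counts, spike-in totals, TPM ratios, other filters and another fold limit. Python 3.11.15, scipy 1.17.1 and matplotlib 3.10.9 were used.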

Additional observations from a re-analysis of the deposited data

How the results depend on the processing

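Most of the alternative settings moved all genes by nearly the same amount, so ratios recomputed under them are not independent of each other. The largest downward shift was -0.037, with DESeq2 size factors, and the lowest member log2 ratio was 0.08. A change of direction was therefore hardly possible. Nor could Actg2, at 1.13, or Myh11, at 1.46, readily fall below the 2-fold limit. Of 80 ratios of single members recomputed under other settings, 79 kept their direction and their side of the threshold, and Actg2 and Myh11 were called under each. The exception was Mylk, at a log2 ratio of 1.13 by TPM without the spike-ins and the pancreas, stomach and gland genes, an alternative chosen after seeing the data. At a 1.5-fold limit 7164 genes were called in place of 4111, and 4 members, adding Mylk and Synm, beside 23.9% of all genes higher in replicate 1. The members' median log2 ratio of 0.36 became 0.60 with total counts, 0.61 with spike-in totals, 0.53 with TPM, 0.73 with TPM without those genes, 0.56 as a mean over the 10, and 0.31 relative to genes of the same length class, also chosen after seeing the data. Total counts moved the median of all genes by 0.24, spike-in totals by 0.24, TPM by 0.16 and TPM without those genes by 0.35 against TMM. Genes called higher in replicate 1 and in replicate 2 numbered 2296 and 1815 with TMM, 3154 and 1261 with total counts, 3179 and 1246 with spike-in totals, 3106 and 1582 by TPM ratio, and 3974 and 1183 by the ratio of TPM without those genes. Without the filter on low counts, 2 genes of pericytes and vascular muscle were called in place of 1. Shares of expected counts in place of TPM moved 7 of 10 isoform shares, by over 1.5 times for Smtn-206 (0.905% in place of 5.27%), Smtn-201 (11.6% in place of 18.7%) and Actg2-204 (7.99% in place of 12.9%). Beyond the construction of each setting, the cause was not tested. Leaving out a replicate gave a summed TPM of 1329 to 1974 and left no ratio. No paired analysis was possible because the series has 1 group. Counts of the members ran from 1130 to 34292, so for most members counting error is small beside the spread between the libraries, which rests on 2 samples. It is less small for Lmod1, with a ratio of 1.16 (1.08 to 1.25), and for Tagln, with 1.06 (1.04 to 1.08).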
